A study of Mus musculus with 12 samples.

Results

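The genes described here are 57 transcription factors, grouped as craniofacial homeobox and patterning factors, though some are better known from other organs. They hold homeobox genes of the Dlx, Msx, Barx, Barhl, Pitx, Otx, Gsc, Lhx, Isl, Irx, Alx, Prrx and Shox families. The sine oculis homologues Six2, Six3, Six4, Six5 and Six6 and the paired-box genes Pax1, Pax2, Pax3, Pax5, Pax6, Pax8 and Pax9 are included. The T-box genes Tbx1, Tbx2, Tbx3, Tbx4, Tbx5, Tbx15 and Tbx18 and the basic helix-loop-helix genes Hand1 and Hand2 complete the list. All were taken by name from the 22225 protein-coding genes of GENCODE vM1 on the mouse assembly mm9, and all 57 were found. For each gene the reads calling a CpG methylated or unmethylated were summed over a promoter, 1000 bp on either side of the gene start, over a body, from 1000 bp past the start to the gene end, and over the whole window from 2000 bp before the start to the end. A level was used where every one of the 12 libraries had 20 or more reads. This held for 57 windows of 14370 genes, for 48 promoters of 10455 and for 50 bodies of 8811. The promoters of Six3, Lhx3, Lhx8, Tbx5, Tbx18, Prrx1, Prrx2, Otx2 and Hand1 and the bodies of Msx2, Six2, Six5, Six6, Irx6, Alx1 and Hand2 had fewer.

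DNA methylation was measured by ERRBS, in which DNA is cut at CCGG by MspI, converted with bisulfite and sequenced, in soft tissue of the oral cavity from female B6C3F1/J mice. The mice were 8 weeks old on entering the study, before about a week of quarantine and the treatment. The 4 groups of 3 samples each received the vehicle DMSO, the polycyclic aromatic hydrocarbon carcinogen dibenzo[a,l]pyrene (DBP), DBP with a chemopreventive agent left unnamed in the labels (DBP+agent), or DBP with the chemopreventive agent BR extract (DBP+BR). DBP was put into the mouth at 24 nmol on 3 occasions a week for 5 weeks, and tissue was taken 48 h after the last dose. Buccal mucosa, mouth floor and palate tissue were pooled for extraction, so levels are averages over cell types, and a change in one cell type cannot be told apart from a change in cell numbers. The labels do not say whether a sample is 1 animal. The p-values weigh a difference against the spread between these samples, except those of logistic regression, which leaves that spread out.

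Sequencing depth went with the groups. The libraries held between 3287367 and 7774032 CpG calls in DMSO, 7515975 and 7974299 in DBP, 16908728 and 39615620 in DBP+agent, and 17712547 and 78889043 in DBP+BR, so depth and the last 2 treatments cannot be told apart. Over all CpG calls, 32.9% were methylated in DMSO 1, 40.8% in DMSO 2 and 41.3% in DMSO 3, against 34.0% to 36.7% in DBP, 30.7% to 35.5% in DBP+agent and 29.3% to 39.3% in DBP+BR, where DBP+BR 1 was the lowest. Marker promoters could not tell the cell types apart. Of 11 squamous epithelium markers, 4 had a measured promoter, with Krt4 at 88.5% and Pkp1, Cdh1 and Grhl2 at 8.08% to 11.4%. The muscle markers Myod1, Des and Actn3 were just as low, at 7.44% to 12.3%. So were the fibroblast marker Pdgfra (4.95%) and the neuron marker Syt1 (7.73%). Of the leukocyte and endothelial markers 0 had a measured promoter.

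In mammalian DNA, methyl groups sit mostly on the cytosine of CpG dinucleotides, and most CpGs carry them. Dense clusters of CpGs, called CpG islands, are the usual exception. Genes that set position and cell fate in the embryo are known for islands that run well past the promoter into exons and introns, in wide stretches that stay largely unmethylated in many tissues. Dlx, Msx, Barx1, Pitx, Pax9, Lhx6, Lhx8, Gsc, Alx, Prrx and Hand genes act in the jaw, palate or tooth germ, and other members are better known from the eye, kidney, limb or brain.

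A few stretches of mm9 show the range of levels found in these genes. They are written 5′ to 3′ on the strand of the gene, with every CpG in capitals, and were chosen after their values were seen.

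Msx1, whose loss prevents tooth formation, upstream of the start at chr5:38215860-38215945, minus strand, shown as the common low state.
Msx1 promoter: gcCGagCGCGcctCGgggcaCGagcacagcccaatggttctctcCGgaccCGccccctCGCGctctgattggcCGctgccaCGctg
Tbx1, a factor of the pharyngeal arches, upstream of the start at chr16:18588961-18589016, minus strand, shown as an intermediate state.
Tbx1 promoter: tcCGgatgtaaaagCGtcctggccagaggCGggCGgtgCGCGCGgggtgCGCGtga
Tbx4, a factor of the hindlimb bud, upstream of the start at chr11:85699355-85699503, plus strand, shown as a methylated promoter.
Tbx4 promoter: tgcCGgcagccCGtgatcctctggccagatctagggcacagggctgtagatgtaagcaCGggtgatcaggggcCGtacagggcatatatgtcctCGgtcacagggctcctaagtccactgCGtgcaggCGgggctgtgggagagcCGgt
Pax5, the B-cell identity factor, in introns at chr4:44571081-44571182 and chr4:44599390-44599431, minus strand, shown as both states within 1 gene body.
Pax5 low stretch: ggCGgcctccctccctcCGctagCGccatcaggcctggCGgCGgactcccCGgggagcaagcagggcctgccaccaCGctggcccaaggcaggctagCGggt
Pax5 high stretch: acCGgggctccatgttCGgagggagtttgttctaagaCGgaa
Hand1, a factor of the heart and lower jaw, in a coding exon at chr11:57645193-57645238, minus strand, shown for the comparison of DBP+BR with DBP.
Hand1 coding exon: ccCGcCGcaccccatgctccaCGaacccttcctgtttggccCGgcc

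In the Msx1 stretch, 10 of the 11 CpGs were methylated in 0.0531% of the pooled reads, and the CpG inside CCGG, the site that MspI cuts, stood at 28.2%. In the Tbx1 stretch the 9 CpGs were methylated in 35.8% of reads, and in the Tbx4 stretch the 8 CpGs in 72.0%. The low Pax5 stretch held 8 CpGs at 7.74% and the high one held 3 at 87.6%. The high stretch lay between 79.2% and 95.4% in every library and the low one between 1.33% and 12.8%, so the same libraries carried both states in 1 gene.

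Promoters were low in most of these genes, though fewer were very low than among promoters in general. The median over 48 promoters was 7.02%, against 5.92% over all 10455 measured promoters, and 44 of the 48 (91.7%) lay under 20%, against 91.0% of all. Under 5% there were 8 of the 48 (16.7%), against 34.6% of all. Without CpGs in CCGG there were 37 of 46 (80.4%), against 89.9% of all. Six2, Six4, Six5 and Six6, of a family that acts in the eye, kidney and muscle, had the lowest family median of those with over 1 measured promoter, at 4.32%, and the Pax family had the highest at 10.2% over 7. The LIM-homeodomain genes of the Lhx and Isl families had a median of 5.35%, the Iroquois genes of the Irx family 5.77%, the Msx, Barx and Barhl genes 5.82%, and the Dlx genes, which set upper and lower jaw identity, 6.99%. Within families the spread was wide. The Dlx promoters ran from 5.83% for Dlx4 to 17.6% for Dlx1, the Irx promoters from 4.34% for Irx6 to 11.3% for Irx1, and the Tbx promoters from 5.23% for Tbx2 to 38% for Tbx4. Outside CCGG the Dlx range was 1.14% to 5.86%, the Irx range 0.408% to 9.20% and the Tbx range 0.853% to 34.2%. The 6 lowest of all were Six4 (3.95%), Six2, Shox2, Irx6, Lhx2 and Barx1 (4.57%), and in none of these did a library exceed 7.47%.

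**Figure D1:**
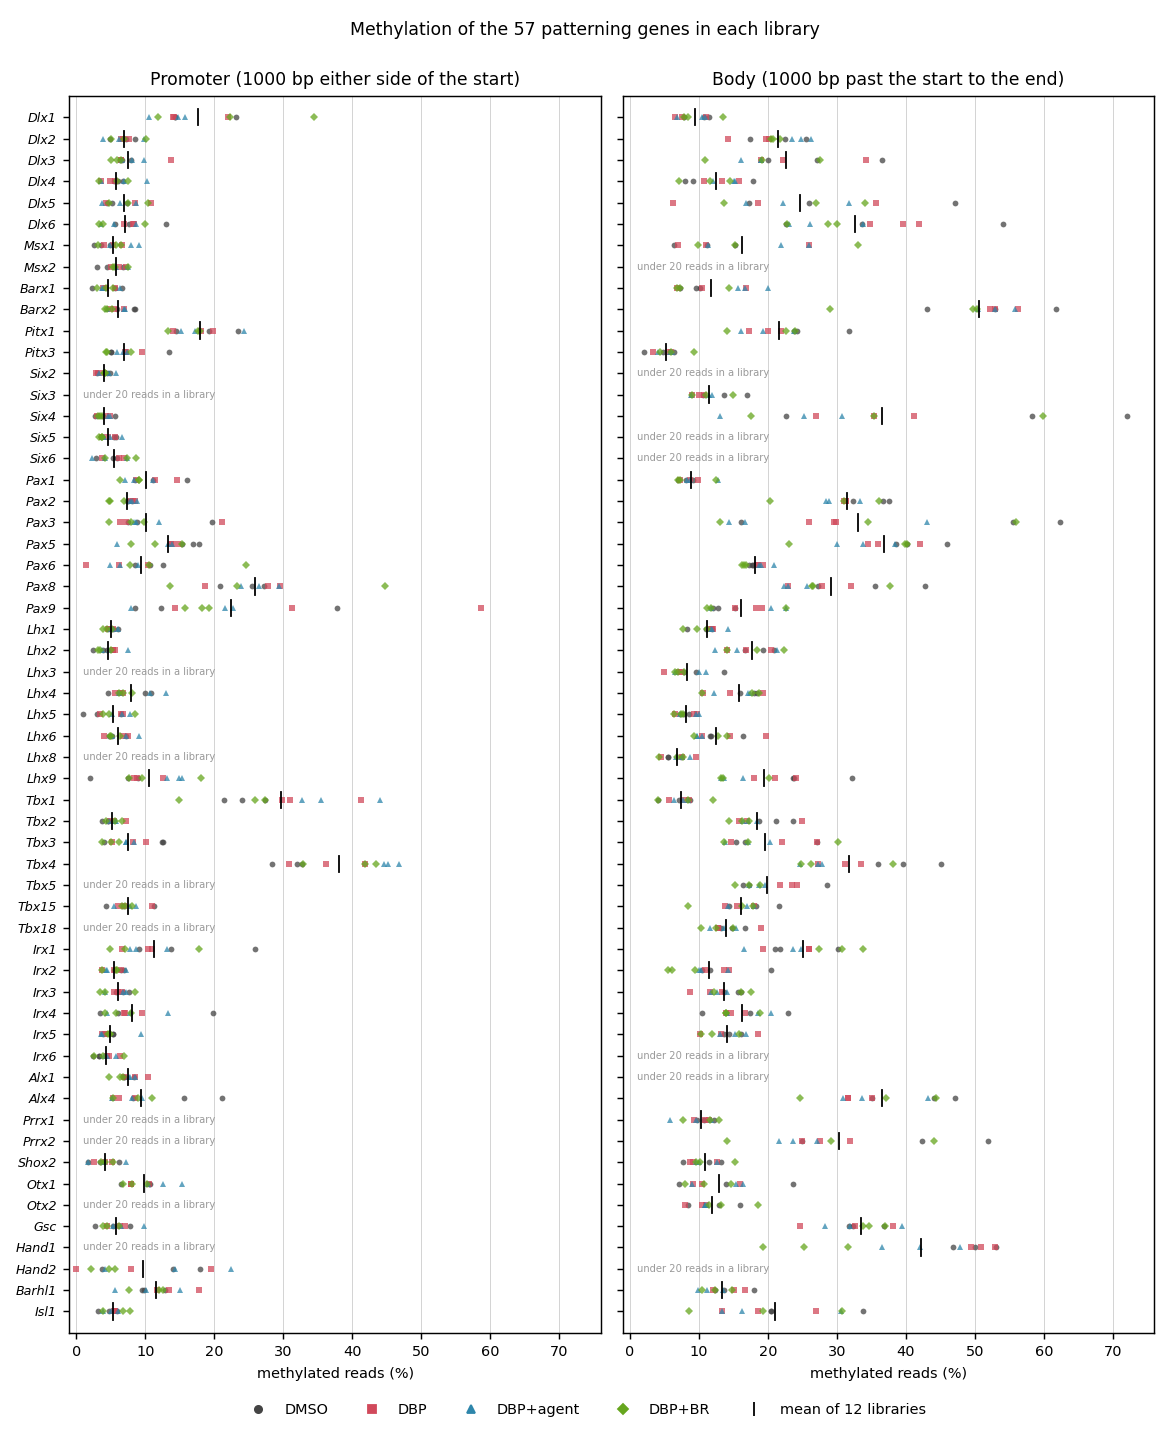
Methylation of the 57 genes in each of the 12 libraries, with promoter (left) and body (right) as percent of reads calling a CpG methylated. Each marker is 1 library, coloured by group, the black line is the mean of 12, and regions under 20 reads in a library are left blank. Most promoters sit near 7% in every library, and bodies range from 5.30% for Pitx3 to 50.6% for Barx2.

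A few promoters had higher mean levels. Tbx4 had the highest promoter, at 38% ± 6.52 (SD, n = 12). Its values were 31.9%, 32.7% and 28.4% in DMSO, 41.9%, 36.2% and 30.8% in DBP, 46.8%, 45.1% and 44.5% in DBP+agent and 41.8%, 43.4% and 32.8% in DBP+BR. No library of Tbx4 came within 20 points of the median promoter, all 3 DBP+agent libraries lay above the other 9, and DMSO and DBP overlapped. Tbx1 followed at 29.6% ± 8.13 (SD, n = 12), with 21.4%, 24.0% and 27.4% in DMSO, 41.2%, 31.0% and 29.8% in DBP, 44.0%, 35.5% and 32.6% in DBP+agent and 14.9%, 25.9% and 27.4% in DBP+BR. DBP and DBP+agent were each above both other groups in all 3 libraries. Next came Pax8 (25.9%), a thyroid and kidney factor, Pax9 (22.4%), which is needed for tooth and palate formation, Pitx1 (17.9%), of the hindlimb and lower jaw, and Dlx1 (17.6%).

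In 5 of these promoters, read on both sides of the start, the sides differed in level. For Tbx4 the 1000 bp before the start held 53.9% methylated reads over 24 CpGs and the 1000 bp after it 27.6% over 23 CpGs. For Tbx1 the sides were 34.2% over 60 CpGs and 16.1% over 29, for Pitx1 24.0% and 8.45%, and for Dlx1 59.0% and 9.13%. The Dlx1 value before the start rests almost wholly on CpGs in CCGG, with only 29 of 383 reads outside it. After the start, Dlx1 stood at 2.57% outside CCGG. Outside CCGG, Tbx4 (54.6% and 23.3%), Tbx1 (31.3% and 7.97%) and Pitx1 (13.3% and 4.13%) kept the order of their sides. Pax9 had the reverse order, 14.7% before and 29.4% after the start, and Pax8 was read on the downstream side alone. Of these 6 genes, each has more than 1 annotated transcript start, with the furthest 1051 bp from the gene start in Tbx1, 2667 bp in Dlx1 and 10343 bp in Tbx4, and the promoter here is around the first one only.

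In the gene body these genes stood far under other genes. The median body level was 16.3% over 50 members, against 72.3% over all 8811 measured bodies, and 32 of the 50 (64.0%) lay under 20%, against 11.9% of all. Of a list of 70 other patterning genes, 56 had a measured body, with a median of 13.7%. The 6 lowest bodies were those of Pitx3 (5.30%), a lens and dopamine neuron factor, Lhx8 (6.82%), Tbx1 (7.45%), Lhx5 (8.15%), Lhx3 (8.31%) and Pax1 (8.90%). The 6 highest were those of Barx2 (50.6%), Hand1 (42.2%), Pax5 (36.9%), Alx4 (36.5%), Six4 (36.5%) and Gsc (33.4%). By family, the median was 12.6% for Lhx and Isl, 12.9% for Pitx, Otx and Gsc, 14.1% for Irx, 14.8% for Msx, Barx and Barhl, 18.4% for Tbx, 22.0% for Dlx and 29.2% for Pax. The highest member, Barx2, was thus still under the median of all bodies.

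Promoter and body diverged little in most members. Over 41 genes with both regions, the body was 8.66 points higher in the median, against 63.6 points over all 5510 genes with both. The gap was widest in Barx2, from 6.03% in the promoter to 50.6% in the body, followed by Six4 (32.6 points), Gsc (27.6), Alx4 (27.1) and Dlx6 (25.5), and in these 5 genes the body was the higher in 12 of 12 libraries. In 6 genes the promoter was higher: Tbx1 by 22.1 points in 12 of 12 libraries, Dlx1 by 8.19, Pax9 by 6.25, Tbx4 by 6.22, Pitx3 by 1.68 and Pax1 by 1.22. In Pax9 and Pax1 the body was still the higher in 6 of 12 libraries, and in Tbx4 in 3. Without CpGs in CCGG, body minus promoter was −1.38 points in Dlx1, 0.665 in Pitx3 and −5.18 in Pax8. Tbx1 therefore paired one of the highest promoters with one of the lowest bodies.

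**Figure D2:**
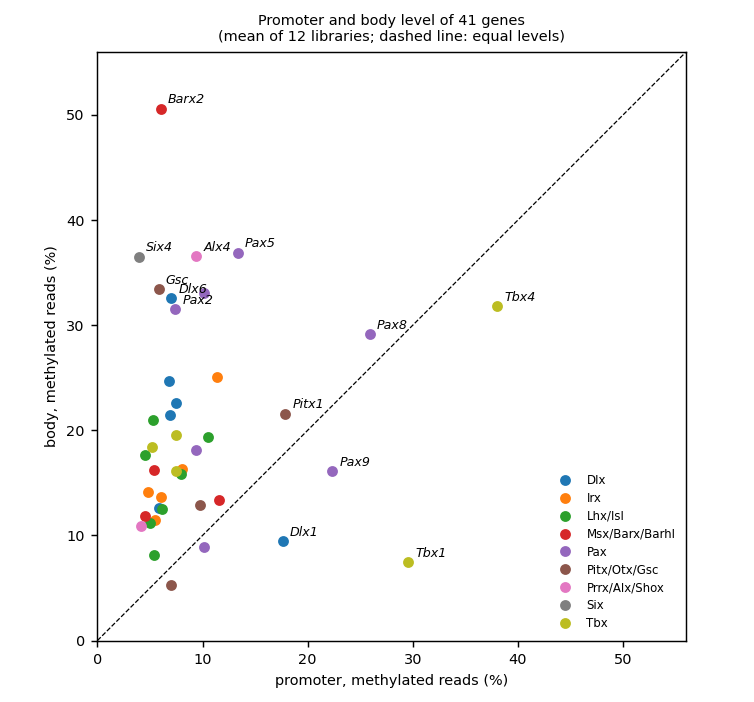
Promoter level (horizontal, percent) against body level (vertical, percent) of 41 genes, each point the mean of 12 libraries and coloured by family, with a dashed line where both are equal. Barx2, Six4 and Alx4 lie far above the line, and Tbx1, Dlx1, Pax9 and Tbx4 lie below it.

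Along the genes the low state reached far past the promoter. In the bin from 500 bp before the start to the start, the median was 7.79% in members and 5.93% in all genes. From 2500 to 3000 bp past the start it was 17.8% in 25 members and 70.9% in 1608 genes. From 5000 to 5500 bp it was 11.5% in 20 members and 77.6% in 1197 genes. Before the promoter, from 2000 to 1500 bp upstream, it was 17.8% and 63.4%. The median of the members did not exceed 25.4% in any bin up to 10000 bp.

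**Figure D3:**
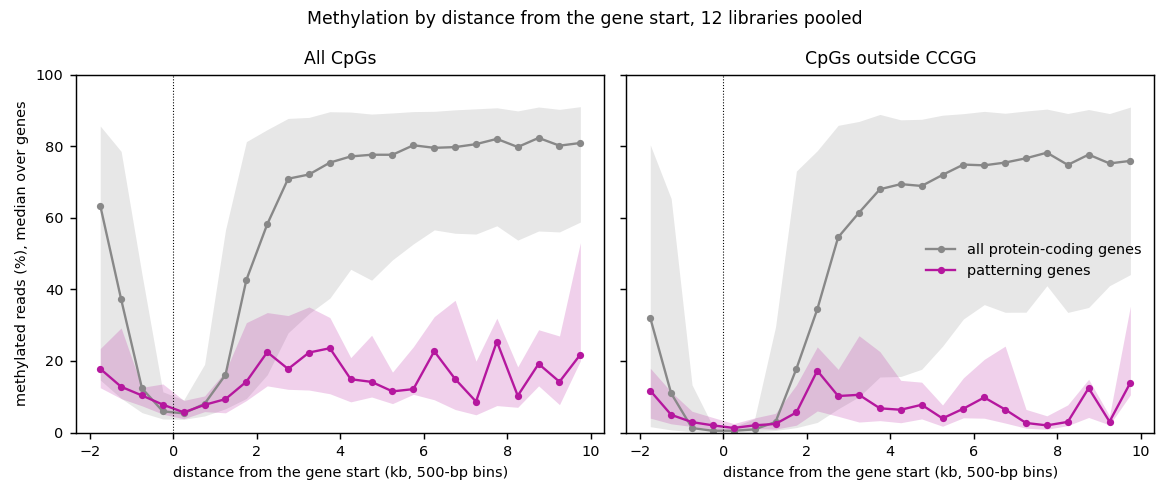
Median methylation (percent) in 500-bp bins by distance from the gene start (kb), for the patterning genes and for all protein-coding genes, over all CpGs (left) and over CpGs outside CCGG (right). Shading spans the quartiles over genes. For all CpGs the gray line reaches 70.9% in the bin from 2500 to 3000 bp, where the patterning genes stand at 17.8%.

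The level of a CpG depended on whether it lay in CCGG. Pooled over member CpGs, CpGs in CCGG were methylated in 36.3% of reads (33.9% to 41.1% over the 12 libraries) and other CpGs in 7.29% (6.04% to 8.77%). Over all CpGs read, the values were 61.1% and 23.9%. CpGs in CCGG lie at the fragment ends that MspI makes, and all libraries showed the gap. In the Msx1 stretch and the low Pax5 stretch, the 1 CpG in CCGG stood at 28.2% and 27.1% amid neighbours at 0% to 5.18%. What sets CpGs in CCGG apart was not tested. Without them the median promoter was 1.68% in members and 0.699% in all genes, and the median body 9.54% and 62.1%, so the distance between members and other genes in the body did not rest on them.

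Local CpG number went with the level, and members and other genes came close only in the densest of 4 classes. Body CpGs outside CCGG with 16 or more CpGs within 100 bp had a median of 2.77% in 45 members and 1.25% in 2850 genes. With 11 to 15 CpGs it was 6.40% and 39.3%, with 6 to 10 it was 13% and 75%, and with 1 to 5 it was 30.1% and 76%. Promoters of the 57 members also held more CpGs, a median of 106 in 2000 bp against 61 over all 22225 genes, measured or not. The ratio of observed to expected CpGs was 0.622 against 0.468 and the GC content 56.6% against 51.1%. Genes with a measured promoter were not compared apart in this.

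**Figure D4:**
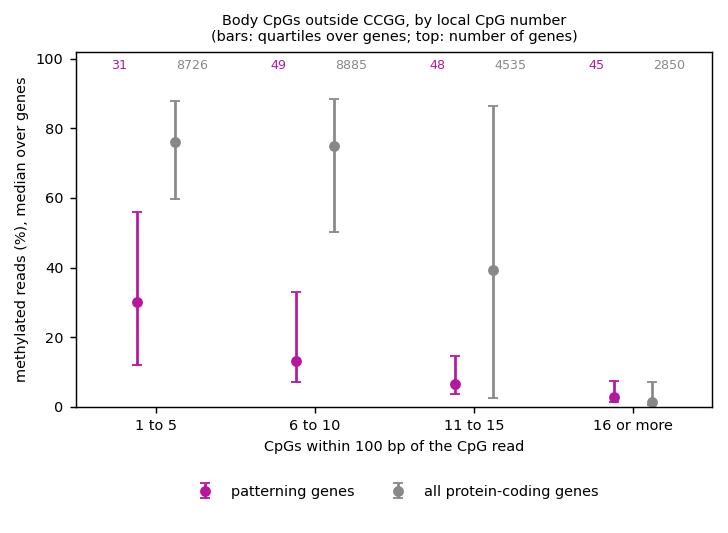
Median methylation (percent) of body CpGs outside CCGG by the number of CpGs within 100 bp, for patterning genes and all protein-coding genes. Points are medians over genes, bars the quartiles, and the numbers at the top the genes in each class. The medians are 13% and 75% in the class of 6 to 10 CpGs and 2.77% and 1.25% in the densest class.

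At single CpGs most members were close to unmethylated. Among 4017 member CpGs outside CCGG with 60 or more pooled reads, 89.2% were under 20% and 55 (1.37%) were over 80%, against 77.5% and 11.7% of 472229 CpGs in all genes. The 55 lay in 14 members, with 16 in Pax5, 10 in Alx4, 8 in Pax2 and 4 in Tbx4. Pax5 is the longest of the 57 genes, at 180302 bp, and its introns held both the low and the high stretch shown above. With CpGs in CCGG skipped, runs of consecutive measured CpGs under 20% spanned a median of 3022 bp in the 57 members, against 648 bp in 12467 genes, and over more than 5000 bp in 14 members (24.6%) against 5.98% of genes. The widest runs were those of Tbx5, the forelimb and heart factor (29256 bp, 32 CpGs), Pax3, of the neural crest and muscle precursors (18363 bp, 20 CpGs), and Pax2 (12627 bp, 45 CpGs). In Lhx5, a forebrain factor, all 130 measured CpGs outside CCGG were under 20%, over 9971 bp, and in Lhx1 all 101, over 6701 bp. With CpGs in CCGG counted too, 133 of 165 in Lhx5 and 107 of 130 in Lhx1 were under 20%. Run length depends on how far apart the CpGs read are. Outside CCGG the median was 8.73% in introns of 36 members and 7.37% in exons of 34, and the intron was the higher in 18 of 25 members with both.

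Libraries differed widely in some bodies. Six4 had the widest spread beyond counting error, with an SD of 18.2 points over 12 libraries, where counting alone gives 3.27. The spread also holds differences between samples and between the CpGs read in each. Its body stood at 22.7%, 72.1% and 58.2% in DMSO, 41.2%, 27.0% and 35.3% in DBP, 25.2%, 30.7% and 13.1% in DBP+agent and 17.6%, 59.8% and 35.3% in DBP+BR. Pax3 had the same high libraries, with 16.1%, 62.3% and 55.6% in DMSO, 29.5%, 29.9% and 26.0% in DBP, 16.7%, 14.4% and 43.1% in DBP+agent and 13.1%, 55.9% and 34.5% in DBP+BR. In both genes DMSO 2, DMSO 3 and DBP+BR 2 were the 3 highest libraries. In the deposited counts these 3 also had the largest share of methylated calls, at 40.8%, 41.3% and 39.3%. The part of that share in these values was not tested. Prrx2, Hand1 and Dlx5 completed the 5 bodies with the most spread beyond counting, and Pax9, Tbx1, Hand2, Pax8 and Dlx1 were the 5 such promoters. The Pax9 promoter ran from 8.57% to 37.7% within DMSO and from 14.3% to 58.6% within DBP, on as few as 29 reads. Over the 50 bodies DBP+BR 1 was the lowest library in 17, and DMSO 3 and DMSO 2 were the highest in 12 and 11.

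The first comparison asked whether the carcinogen changed these genes, DBP against DMSO. Averaged over the libraries, the pooled member promoters stood at 7.31% ± 0.183 (SD, n = 3) in DMSO and 7.62% ± 0.154 in DBP, and the bodies at 19.2% ± 1.97 and 17.5% ± 0.359. The median change was 0.0386 points over 48 promoters, with 25 higher and 23 lower, against −0.251 over all promoters, and −1.70 points over 50 bodies, with 17 higher and 33 lower, against −0.683 over all bodies. The median over promoters turned to −0.402 with equal weight for each CpG. By edgeR's quasi-likelihood test with Benjamini-Hochberg adjustment over all genes, 0 members passed an adjusted p of 0.05 in promoter, body or window, where 0% of all genes passed too. At an unadjusted p under 0.05 there were 2 promoters (3.02% of all promoters passed), 1 body (3.65%) and 0 windows (3.84%), and limma also gave 0 calls at the adjusted threshold. Without DMSO 1, edgeR gave 2 promoters (5.91%), 7 bodies (7.88%) and 3 windows (13.1%) at the unadjusted threshold, and 0 at the adjusted one.

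Single members in this comparison are given by value. The promoter of Alx4, a factor of the frontonasal skeleton, stood at 8.19%, 15.5% and 21.2% in DMSO and at 6.22%, 8.45% and 5.39% in DBP, a log2 odds ratio of −1.16 with an edgeR unadjusted p of 0.0162 and an adjusted p of 1.00. In DMSO 2 libraries were high and the third lay among the DBP values. The Irx6 promoter stood at 2.47%, 3.33% and 3.33% in DMSO and at 4.42%, 4.76% and 6.36% in DBP (log2 odds ratio 0.80), without overlap. The Lhx3 body, of a pituitary and motor neuron factor, stood at 7.93%, 13.6% and 9.57% in DMSO and at 4.92%, 7.18% and 7.46% in DBP (log2 odds ratio −0.72), also without overlap. Next by p came the bodies of Tbx4 (30.7% in DBP, 40.2% in DMSO), Pitx1 (19.8%, 26.6%), Irx3 (11.2%, 15.2%) and Six3 (9.97%, 13.8%) and the promoters of Tbx1 (34%, 24.3%), Irx1 (9.3%, 16.3%) and Tbx2 (5.84%, 4.26%), none under an unadjusted p of 0.05. Of 48 member promoters, those that did not overlap between the groups numbered 4 higher in DBP (4.81% of all promoters) and 1 lower (6.01%). Of 50 bodies they numbered 2 higher (5.12%) and 5 lower (7.41%). These counts are small and were not tested against those of all genes. Windows that did not overlap numbered 2 higher (4.29%) and 4 lower (8.01%) of 57.

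The second comparison, DBP+agent against DBP, asked whether the agent changed the genes in treated mice. The pooled member promoters stood at 7.84% ± 1.02 in DBP+agent and the bodies at 17.2% ± 0.951 (SD, n = 3). The median change was 0.134 points over 48 promoters, against 0.163 over all, and 0.408 points over 50 bodies, against 0.0852 over all, and the median over bodies turned to −0.67 without CpGs in CCGG. By edgeR 0 members passed the adjusted threshold in any region (0% of all genes), and at an unadjusted p under 0.05 there were 0 promoters (2.13%), 2 bodies (3.06%) and 0 windows (1.57%). The Dlx2 body stood at 24.8%, 23.5% and 26.3% in DBP+agent and at 20.2%, 19.7% and 14.2% in DBP, a log2 odds ratio of 0.60 (edgeR unadjusted p = 0.0278, adjusted p = 1.00). These values did not overlap, and 2 of the 3 DMSO libraries, at 22.5% and 25.5%, lay above DBP as well. The Lhx6 body, a factor of tooth and jaw mesenchyme, stood at 10.5%, 9.72% and 9.71% in DBP+agent and at 10.5%, 14.5% and 19.7% in DBP (log2 odds ratio −0.62), with 1 DBP library among the DBP+agent values. Next by p, with none under 0.05 unadjusted, came the bodies of Lhx9 (14.4% in DBP+agent, 21% in DBP), Barx1 (17.4%, 11.3%) and Dlx6 (27.6%, 38.8%). The promoters with the smallest p were those of Lhx4 (9.97%, 6.26%), Pax9 (17.4%, 34.7%), Six2 (4.61%, 3.32%), Tbx4 (45.5%, 36.3%) and Otx1 (12.8%, 8.78%). Promoters that did not overlap numbered 2 higher in DBP+agent (6.29% of all) and 0 lower (2.81%) of 48, bodies 1 higher (6.42%) and 4 lower (5.31%) of 50, and windows 1 higher (3.44%) and 3 lower (7.42%) of 57.

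The third comparison was DBP+BR against DBP, and it shares the DBP samples with the second. The pooled member promoters stood at 6.87% ± 0.413 in DBP+BR and the bodies at 17.2% ± 2.12 (SD, n = 3). The median change was −0.537 points over 48 promoters, with 16 higher and 32 lower, against −0.355 over all, and −0.406 points over 50 bodies, against −0.219 over all. The median over bodies turned to 0.776 with cytosines of at least 5 reads, and that over promoters to 0.0366 without CpGs in CCGG. In DBP+BR 1, 15.4% of the member promoter reads were in CCGG, against 18.2% to 20.4% in the other libraries, and its part in the result was not tested. By edgeR 0 members passed the adjusted threshold in any region (0% of all genes). At an unadjusted p under 0.05 there were 2 promoters (3.87%), 2 bodies (3.75%) and 4 windows (2.96%). The test over the 4 groups together gave 0 calls as well, and at the unadjusted threshold 1 promoter (3.62%), 4 bodies (4.63%) and 2 windows (3.79%).

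In the main edgeR fit, the smallest p of any member was that of the Hand1 body in this comparison. Its values were 53.0%, 50.0% and 46.8% in DMSO, 52.9%, 49.5% and 50.8% in DBP, 47.9%, 42.1% and 36.5% in DBP+agent and 19.3%, 25.3% and 31.7% in DBP+BR. All 3 DBP+BR libraries were the lowest of the 12, and the means were 25.4% against 51.1% in DBP. The log2 odds ratio was −1.64 (edgeR unadjusted p = 0.000541), and over all bodies the adjusted p was 1.00. The CpGs read were not the same in all libraries, since several at the 3′ end of the gene were read almost only in DBP+BR 1, and with CpGs read in all 12 libraries alone the gene could not be fitted. In the coding exon stretch shown above, the pooled level was 53.9% in DMSO, 64.3% in DBP, 50.7% in DBP+agent and 29.5% in DBP+BR. There DBP+BR 2 stood at 25.3% and DBP+BR 3 at 32.9%, under all other libraries, and DBP+BR 1 had only 4 reads, with 0 methylated.

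Other members in the same comparison were smaller in size. The Irx2 body stood at 9.43%, 5.53% and 6.09% in DBP+BR and at 14.4%, 13.7% and 10.9% in DBP, without overlap, a log2 odds ratio of −1.01 (edgeR unadjusted p = 0.00615, adjusted p = 1.00). The ratio was −0.94 with the CpGs read in all 12 libraries. The Tbx1 promoter stood at 14.9%, 25.9% and 27.4% in DBP+BR and at 41.2%, 31.0% and 29.8% in DBP (log2 odds ratio −0.84, edgeR unadjusted p = 0.0316, adjusted p = 1.00), without overlap, and the DMSO values lay with those of DBP+BR. With promoters drawn around every transcript start, the Tbx1 ratio turned to 0.40. In the stretch of the Tbx1 promoter shown above, DMSO stood at 20%, 23.1% and 24.7%, DBP at 38.1%, 37.3% and 34.1%, DBP+agent at 52.7%, 36.8% and 51.3% and DBP+BR at 7.69%, 25% and 30.4%. The Pax2 promoter, of a kidney and eye factor, stood at 4.92%, 4.68% and 6.90% in DBP+BR and at 8.56%, 7.95% and 8.21% in DBP (log2 odds ratio −0.64). Next by p, with none under 0.05 unadjusted, came the bodies of Tbx5 (17.1% in DBP+BR, 23.1% in DBP), Irx3 (15.3%, 11.2%) and Dlx6 (27.1%, 38.8%) and the promoters of Alx1 (5.99%, 8.56%), Pax6 (14.3%, 5.98%) and Dlx3 (5.84%, 8.91%). The 4 windows under 0.05 were those of Irx2 (5.59%, 9.26%), Hand1 (21.1%, 36.1%), Alx1 (6.61%, 10.02%) and Six2 (7.63%, 4.63%). Promoters that did not overlap numbered 0 higher (2.32% of all) and 4 lower (7.74%) of 48, and bodies 3 higher (4.27%) and 7 lower (4.63%) of 50. Windows numbered 2 higher (2.71%) and 5 lower (5.38%) of 57.

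Logistic regression of the same counts, which leaves out the spread between samples, called more. The percentages here are shares of all genes called. In DBP against DMSO it called 10 of 57 member windows (28.3% of all), 4 of 48 promoters (3.71%) and 11 of 50 bodies (16.4%). In DBP+agent against DBP it called 25 of 57 windows (33.4%), 7 of 48 promoters (10.2%) and 18 of 50 bodies (24.2%). In DBP+BR against DBP it called 28 of 57 windows (56.5%), 12 of 48 promoters (23.6%) and 35 of 50 bodies (39%).

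**Figure D5:**
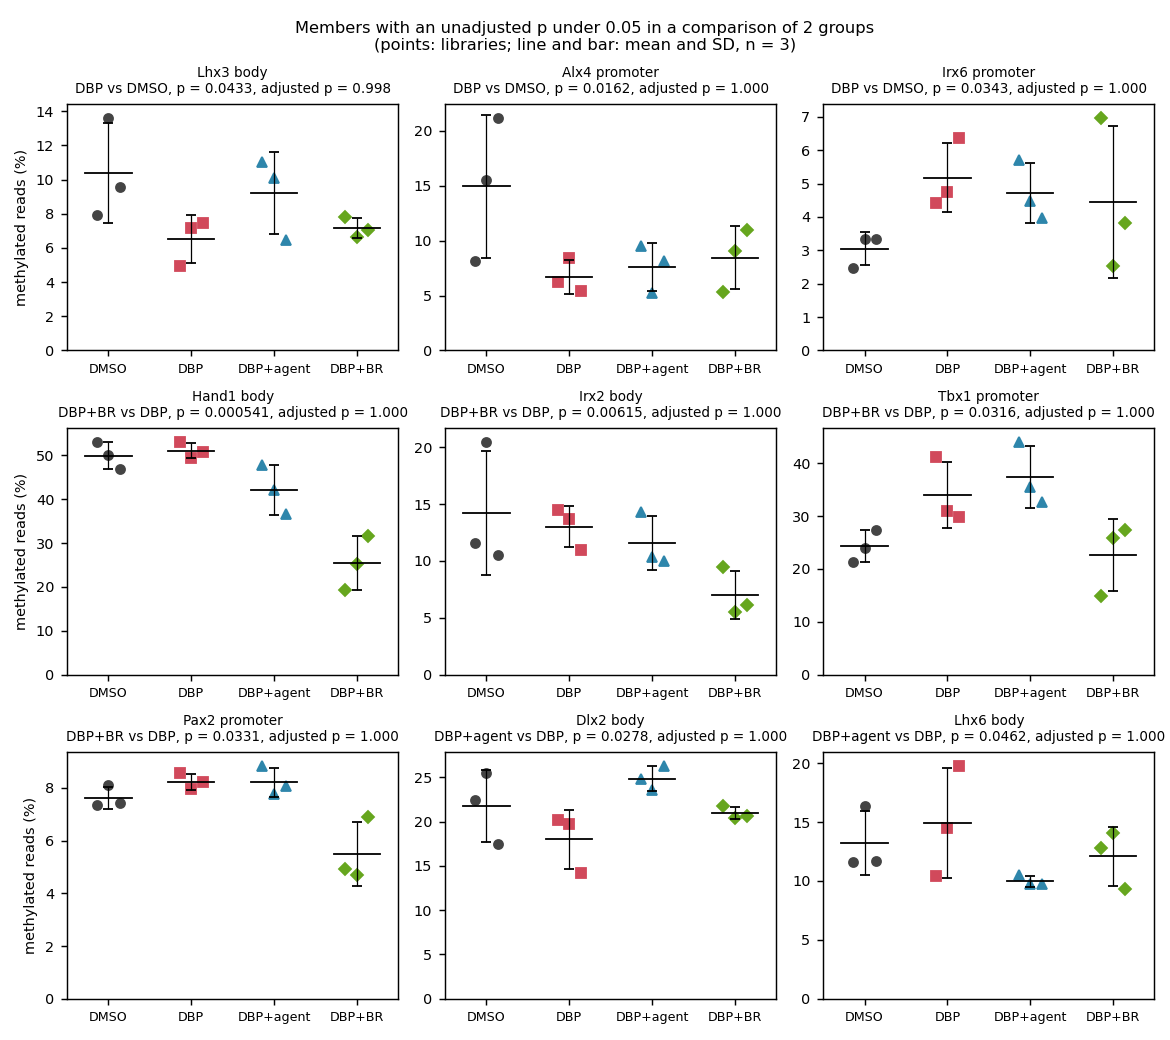
Percent of methylated reads (vertical, from 0) in the 4 groups for the 9 promoters and bodies with an unadjusted p under 0.05 in a comparison of 2 groups. Points are libraries, horizontal lines the means and bars the SD (n = 3), and each title names the comparison with its p and adjusted p from edgeR. In the Hand1 panel the 3 DBP+BR libraries, at 19.3% to 31.7%, lie under all others, and no panel passes the adjusted threshold.

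Single CpGs were tested as the study did, by logistic regression with at least 10 reads in each of 6 libraries, q under 0.01 and a difference over 10 points. In DBP against DMSO 463 member CpGs were tested among 53618, and 0 were called, against 0.112% of all CpGs. At an unadjusted p under 0.05 there were 75 of the 463 (16.2%), against 10.8% of all. In DBP+agent against DBP 53 of 983 member CpGs were called (5.42% of all 127381 CpGs), 34 higher (2.92%) and 19 lower (2.5%), in 26 genes. In DBP+BR against DBP 68 of 817 were called (8.6% of all 104443), 29 higher (3.66%) and 39 lower (4.94%), in 35 genes. These shares of members were near the share of all CpGs. The libraries of the groups did not overlap at 20 of the 53 and 23 of the 68 called, against 3189 of 6902 and 3414 of 8980 called among all CpGs. Over all member CpGs tested 16 of 463 (5.59% of all CpGs), 67 of 983 (5.6%) and 38 of 817 (5.83%) did not. The unadjusted threshold was passed by 356 of 983 member CpGs with the agent (36.2%, against 27% of all). With BR extract it was passed by 337 of 817 (41.2%, against 32.3% of all). This regression takes no account of the spread between samples, and by edgeR, which does, 0 member CpGs passed in each comparison, with 0, 1 and 0 among all CpGs.

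Differences over 25 points were found at 10 member CpGs with the agent (0.754% of all CpGs) and at 4 with BR extract (1.01%). In an intron of Lhx9, a gonad and brain factor, the CpG at chr1:140729265-140729266 stood at 27.3%, 30% and 23.1% in DBP, at 70.3%, 68.2% and 35.6% in DBP+BR and at 72.2%, 70.0% and 83.3% in DMSO, on 6 to 64 reads a library. DBP+agent stood at 50%, 35.2% and 59.1%, so every library of the other groups was above all DBP libraries there. DMSO was not tested because 1 library had under 10 reads. In an intron of Pax9 the CpG at chr12:57801523-57801524, within CCGG, stood at 36.7%, 42.3% and 36.7% in DBP and at 5.13%, 14.3% and 3.64% in DBP+BR, and the DMSO libraries ran from 10% to 70.0%. Upstream of Tbx18, a factor of somites and the sinus node, the CpG at chr9:87627534-87627535, within CCGG, stood at 51.9%, 63.3% and 42.9% in DBP and at 31.2%, 21.4% and 3.28% in DBP+agent, and DMSO overlapped both. Of the 14 CpGs past 25 points, the others lay in Lhx3, Barhl1 (in both comparisons), Dlx2, Shox2, Lhx5, Lhx1, Tbx2, Tbx4, Tbx1 and Prrx2. CpGs in CCGG made up 29 of the 53 and 38 of the 68, and 214 of the 983 and 176 of the 817 tested.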

How the data were processed

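ERRBS was measured in 12 samples of oral soft tissue. The authors trimmed reads with Trim Galore 0.3.3, aligned them to mm9 with Bismark 0.10.1 (read length 50 bp) and deposited, per CpG cytosine and strand, counts of methylated and unmethylated reads, with no normalization. The deposited percent column matched these counts throughout and entered no test. Duplicate reads and strain variants of this hybrid strain (C to T changes read as unmethylated) cannot be recognised from counts, and lanes are not labelled.

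Counts were pooled per gene region and sample as the opening describes, and a region needed 20 reads in every sample. Groups came from the labels. Methylated and unmethylated counts were tested with edgeR 4.0.16 (quasi-likelihood, a coefficient for each sample, all 4 groups in 1 fit) in R 4.3.3, with Benjamini-Hochberg adjustment over all protein-coding genes of a region type and calls at adjusted p < 0.05. CpGs were tested after the study's filters (10 reads, 99.9th percentile, median scaling, merged strands). methylKit was not run. Scripts (Python 3.11.15) were tested on simulated data. A CpG is in CCGG where the mm9 sequence reads so on either side.

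The members, the lists and the stretches shown were chosen with earlier results of these data known. The rule for named genes took the 5 smallest p per comparison and region, the extremes of level, gap and spread, and CpGs called. Given by value are those of promoters and bodies in the comparisons of 2 groups, windows under an unadjusted p of 0.05 and 3 of the CpGs over 25 points, and the others are named or counted only. At 20 reads a level of 0 allows up to 15.0% (3 counts). Intervals and floors cover counting error only. Alternatives changed the depth minimum, the CpGs used, promoter starts, weighting, the test, and the samples.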

Additional observations from a re-analysis of the deposited data

How the results depend on the processing

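The 0 member calls by edgeR held under limma, a quasi-binomial test, other read minima, other sets of CpGs, the 6 samples of a comparison alone, other promoter starts and widths and every left-out library. Logistic regression without the spread between samples called members in DBP against DMSO, DBP+agent against DBP and DBP+BR against DBP. In that order, it called 10, 25 and 28 of 57 windows and 4, 7 and 12 of 48 promoters. Of 50 bodies it called 11, 18 and 35, and the shares of all genes are given above. Member CpGs called with the agent and with BR extract numbered 101 of 1734 and 117 of 1546 at a minimum of 5 reads (5.65% and 6.62% of all CpGs), 24 of 482 and 23 of 323 at 20 reads (4.76% and 7.69%), 16 of 983 and 13 of 817 without coverage scaling (1.18% and 1.84%), 23 of 769 and 29 of 641 without CpGs in CCGG (3.8% and 5.47%, added after seeing the data), and 0 and 0 by edgeR. At q under 0.05 they numbered 87 of 983 with the agent (8.60%) and 7 of 463 in DBP against DMSO (0.601%), and without the upper coverage filter 1 of 463 in DBP against DMSO (0.126%). Leaving out 1 library gave 0 to 2, 50 to 70 and 61 to 87 CpGs (0.0276% to 0.211%, 4.35% to 6.43% and 5.55% to 10.3% of all) and 0 genes in the 3 comparisons, where DBP against DMSO gave 2 CpGs without DMSO 1 and 1 without DBP 1 or DBP 2.

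The median member level was 1.68% (promoter) and 9.54% (body) without CpGs in CCGG and 17.7% (body) with equal weight for each CpG, settings added after seeing the data. The median body change was 1.59 (agent) and 0.802 (BR extract) with equal weight, −0.67 (agent) without CpGs in CCGG and 0.776 (BR extract) with cytosines of at least 5 reads, and the promoter change with BR extract was 0.0366 without CpGs in CCGG. The sign also turned for the promoter change in DBP against DMSO (−0.402 with equal weight) and with the agent (−0.034 without CpGs in CCGG). For the body change with BR extract it turned at a read minimum of 50 (0.264). Leaving out 1 library moved the median body change between −1.98 and −0.73 (DBP), −0.88 and 0.53 (agent, lowest without DBP 3) and −1.71 and 0.22 (BR extract, lowest without DBP+BR 2). The agent's body change was also below 0 without DBP+agent 1 or DBP+agent 3, and that of BR extract above 0 without DBP 1 or DBP+BR 3. Leaving out 1 library moved the promoter change between −0.15 (without DBP 3) and 0.46, −0.34 (without DBP+agent 1) and 0.38, and −0.77 and −0.50. The log2 odds ratio reversed for the Irx1 promoter in DBP against DMSO (0.21 with CpGs read in all 12 samples), the Tbx1 and Pax6 promoters with BR extract (0.40 and −0.035 with every transcript start) and the Lhx3 window with the agent (−0.72 without CpGs in CCGG). The causes were not tested.

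The labels do not say whether replicate numbers pair the samples, and the correlations here cannot settle it. Deviations of same-numbered samples had a mean r of 0.0507 over 18 pairs (−0.0895 to 0.341) and other pairs −0.0257, over 8811 bodies. With the replicate number as a block, 0 genes and 0, 52 and 56 member CpGs were called, where 0.0951%, 5.29% and 7.54% of all CpGs were. With CpGs read in all 12 samples the Hand1 body could not be fitted. A measured promoter could rest on as few as 25 reads in a library.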

Other observations

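Some bodies under 20 reads in a library still held values far from the other members. The Irx6 body, read 19 to 197 times a library, stood between 44.3% and 75.9%, beside a promoter at 4.34%. The Msx2 body, read 12 to 143 times, stood at 73.7%, 91.7% and 64.7% in DMSO, 46.2%, 64.7% and 31.8% in DBP, 79.0%, 25.3% and 68.4% in DBP+agent and 21.1%, 5.36% and 16% in DBP+BR, so that the DBP+BR libraries were the lowest 3 of 12. The Msx2 body was tested only with a minimum of 10 reads, where edgeR called 0 of 54 member bodies in each comparison. It rests on 9 exon CpGs and 6 intron CpGs. At least 1 library had 0 reads in the exon, so the CpGs read differed between libraries. Both genes were picked for their values. Among measured bodies, 4.63% of all were lower in DBP+BR than in DBP without overlap.

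The library DBP+agent 1 was the highest of 12 in 11 of 48 member promoters, and in 2 of 46 without CpGs in CCGG. Its member CpGs in CCGG stood at 41.1%, the highest of the 12 libraries, where the others ran from 33.9% to 37.5%. In bodies, DBP+BR 1 was the lowest in 17 of 50, and in 9 of 50 without CpGs in CCGG.

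Linked genes are given by value. Dlx5 and Dlx6, neighbours on chromosome 6, had promoters at 6.85% and 7.05% and bodies at 24.7% and 32.6%. Dlx1 and Dlx2, neighbours on chromosome 2, had promoters at 17.6% and 6.94% and bodies at 9.44% and 21.4%. In the Iroquois group on chromosome 13, the bodies of Irx1, Irx2 and Irx4 stood at 25.1%, 11.4% and 16.3%, and in that on chromosome 8, those of Irx3 and Irx5 at 13.6% and 14.1%.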
